A study of Capra hircus with 3 samples.

Results

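The genes described here are 4 ligands of the bone morphogenetic protein (BMP) family, BMP3, BMP4, BMP7 and GDF10, and BAMBI, a membrane decoy receptor of the same pathway. They were chosen by name, 5 of the 16739 genes of the table, and each was followed across the single cells of fetal Cashmere goat skin. BMP ligands bind type I and type II serine/threonine kinase receptors, which phosphorylate SMAD1, SMAD5 and SMAD9, and these enter the nucleus with SMAD4 and switch on targets such as the ID genes. BMP4 and BMP7 are activating ligands. BMP3 and GDF10 are close relatives of each other and atypical, since BMP3 is known to oppose the activating ligands. BAMBI resembles a type I receptor without a kinase domain and damps signalling. In skin, BMP signals from the dermis and the epithelium are known to restrain follicle induction, and later to drive hair shaft differentiation.

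The goats were of the Northern Shaanxi White Cashmere breed, with no genotype or agent set between groups. Dorsal fetal skin was sampled at embryonic day 60 (E60), day 90 (E90) and day 120 (E120), which the study calls induction, organogenesis and cytodifferentiation. Each stage is 1 10x Genomics 3′ library of cells pooled from at least 2 fetuses, and cells were not assigned to a fetus. E60 and E90 skin was digested with collagenase IV and dispersed by pipetting, whereas at E120 follicles were picked out with forceps after collagenase and then dissociated with TrypLE. Stage and cell preparation therefore cannot be told apart for E120.

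The libraries held 6849, 6931 and 6896 cells at E60, E90 and E120, with 65049552, 30277663 and 93403291 unique molecular identifiers (UMIs, 1 per captured molecule). Median UMIs per cell were 8579, 3714 and 13064, and the median mitochondrial share was highest at E90, at 11.1% against 4.52% at E60 and 5.26% at E120. Between 9 and 13 barcodes were shared by any pair of libraries. Levels are counts per 1000000 UMIs (CPM), summed over the cells named. A 3′ tag is counted once per molecule, so CPM was not divided by gene length. Intervals are exact Poisson limits at 95% (exact binomial limits for shares) and cover counting error only. With 1 library per stage no difference between stages could be tested. A gene was called where log2(CPM + 1) differed by at least 4-fold and the higher side reached 10 CPM.

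Cells were clustered in each library without any BMP pathway gene, and clusters were named from marker genes, which left 22.9%, 33.9% and 12.5% of the cells of E60, E90 and E120 unnamed. Dermal-like cells numbered 4669 at E60, 504 at E90 and 224 at E120. Epithelial-like cells numbered 3872 at E90 and 5284 at E120. No E60 cluster was epithelial-like, and the 18 epithelial markers summed to 5.60 CPM in the E60 dermal-like cells. Condensate- or papilla-like clusters, a part of the dermal-like class, are the mesenchyme that gathers under a follicle and becomes its signalling centre. They held 48 cells at E60, 256 at E90 and 224 at E120, and at E120 they were all of the dermal-like cells.

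The names of these clusters rest on few genes. A dermal-like cluster took the name where at least 1 listed marker was among its 10 leading genes. That gene was SOX18 in the E60 cluster and the E90 cluster of 80 cells, and APOD in the E90 cluster of 176 cells. In the E120 clusters it was WIF1 for 66 cells, and FGF7, RSPO2, RSPO3 and APOD for 158 cells. A high level of these genes in those clusters follows from the naming and does not support it. SOX18, a factor of the dermal condensate, stood at 905 CPM in the E60 cluster against 57.3 CPM in the rest of that library, at 2153 and 3006 CPM in the 2 E90 clusters against 351 and 361 CPM, and at 170.0 and 186 CPM in the 2 E120 clusters against 29.5 and 30.6 CPM. RSPO2 and FGF7, genes of the mature papilla, reached 1448 and 2364 CPM in the larger E120 cluster and had 0 counts in the E60 cluster. FGF7 was at 27.9 CPM in the rest of the E60 library. At E90 RSPO2 had 0 counts in both clusters. In the rest of the library RSPO2 was only at 0.139 CPM at E60 and at most 0.306 CPM at E90. Its 0 counts therefore say little about these clusters. CHL1 was below the rest in the larger E90 cluster, at 15.9 CPM against 19.2 CPM. In the E90 cluster of 80 cells SOX2, another condensate factor, had 0 counts, and FGF7, CHL1 and CRABP1 were below the rest of the library, at 2.06, 2.06 and 469.8 CPM against 5.50, 19.3 and 612 CPM. RSPO3 and CRABP1 were below the rest in the E60 cluster, at 52.4 and 3329 CPM against 76.2 and 3938 CPM. CORIN, another papilla gene, had 0 counts in the E60 cluster, in the larger E90 cluster and in both E120 clusters. It was also at 0 CPM in the rest of the E120 library, so it says nothing about the E120 clusters. In the smaller E90 cluster CORIN was at 8.24 CPM, from 4 counts, against 0.470 CPM in the rest. The endothelial marker PECAM1, which could mark vessel cells that also express SOX18, was at 2.76 CPM in the E60 cluster, at 3.41 and 6.18 CPM in the larger and smaller E90 clusters, against 10.5 and 10.3 CPM in the rest of that library, and at 0 in both E120 clusters. The E120 clusters differed from each other: that of 158 cells was led by FGF7, RSPO2, RSPO3 and APOD, and that of 66 cells by COL1A2, COL1A1, COL11A1 and ACTA2.

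Across whole libraries GDF10 was the most counted ligand at E60 and BMP7 at E90 and E120. GDF10 made up 74.1% of the UMIs of the 4 ligands at E60, and BMP7 57.3% at E90 and 64.2% at E120, where BMP4 held another 34.6%. These shares compare counted molecules, and unequal capture between genes was not tested. BMP3 was at 0.154 CPM at E60, from 10 counts, at 32.3 CPM at E90 and at 1.04 CPM at E120. It was thus high only in the E90 library, 210.1-fold above E60 (114 to 439.6) and 31.1-fold above E120 (25.2 to 38.7). BAMBI was at 19.5, 6.84 and 619 CPM, which put E120 90.5-fold above E90 (79.0 to 104) and 31.7-fold above E60 (30.0 to 33.5).

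BMP4 and BMP7 differed less between whole libraries. BMP4 was at 21.9, 30.5 and 71.1 CPM at E60, E90 and E120. BMP7 was at 31.9, 88.4 and 132 CPM, 4.14-fold higher at E120 than at E60 (3.95 to 4.33), a log2 ratio of 2.01 that fell under the call in 4 of 7 alternatives. From E60 to E90, 2 of 5 members were called, BMP3 higher and GDF10 lower, where 9.56% of all genes that reached 10 CPM were called (7.23% higher, 2.33% lower). From E90 to E120, 2 of the 4 members that reached 10 CPM were called, BAMBI higher and BMP3 lower, against 13.1% of all genes (2.67% higher, 10.4% lower). From E60 to E120, 3 of 4 were called, BMP7 and BAMBI higher and GDF10 lower, against 19.8% (8.12% higher, 11.7% lower). The members' median log2 ratios were 0.46, 0.88 and 1.83, and those of all genes 0.13, −0.24 and 0.02. In such sums, fewer cells of a type and less RNA per cell cannot be told apart, and the share of dermal-like cells was 68.2%, 7.27% and 3.25% at the 3 stages.

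**Figure D1:**
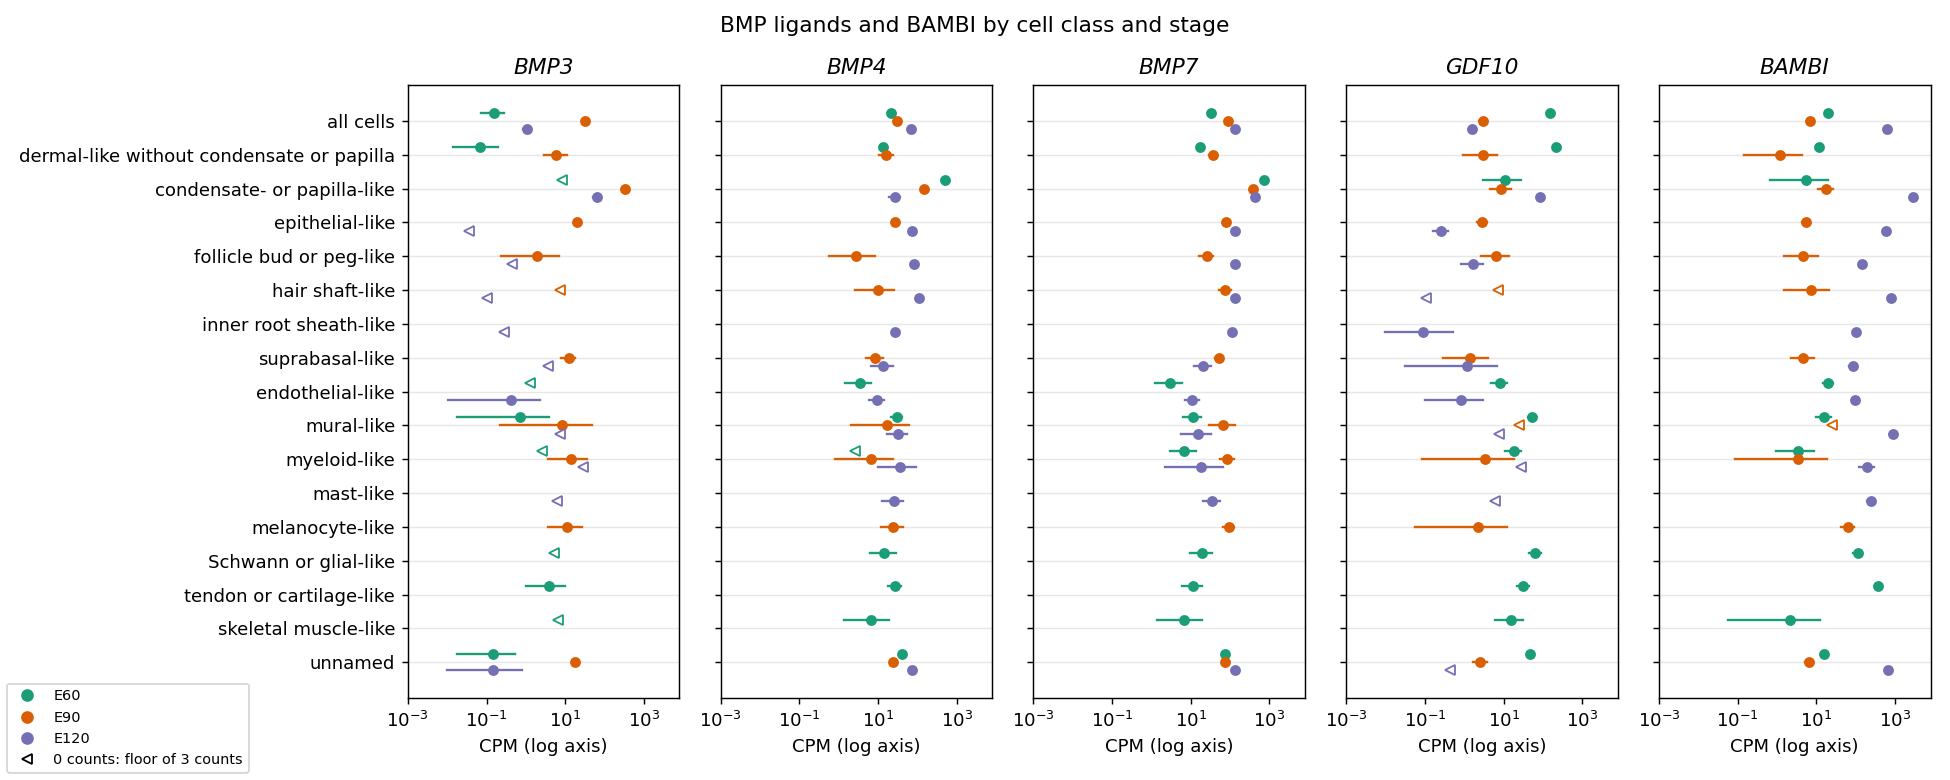
Level of each of the 5 genes, in CPM on a log axis, in the cell classes of each library; bars are 95% counting intervals and a level with 0 counts is drawn at the 3-count floor. BMP3 is highest in condensate- or papilla-like cells of E90 at 329.7 CPM, and BAMBI in those of E120 at 2794 CPM.

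At E60, BMP4 and BMP7 had their highest levels in the small condensate-like cluster, though most of their UMIs lay in other clusters. Its 48 cells were 0.701% of the library and held 12.6% of its BMP4 UMIs and 12.5% of its BMP7 UMIs, 179 and 259 in number. The unnamed cluster led by HBAII and HBAI held more, 286 of the 1425 BMP4 UMIs and 485 of the 2076 BMP7 UMIs. The cluster led by SEMA3C and SMOC2 held 346 BMP4 UMIs. BMP4 was at 494 CPM there (424 to 572) against 13.6 CPM in the other 4621 dermal-like cells. The next cluster for BMP4, led by SEMA3C and SMOC2, was at 84.5 CPM (75.8 to 93.9), and its interval did not overlap that of the first. BMP7 was at 715 CPM in the condensate-like cluster (631 to 808) against 17.5 CPM in the other dermal-like cells and 72.2 CPM in the unnamed cells.

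BMP4 was detected in 35 of the 48 cells and BMP7 in 46, so that both were found in 72.9% of the cells, where the product of their shares is 69.9%. After every cell was thinned to 2000 UMIs, which no cell fell below, BMP7 was detected in 70.8% of the 48 cells and BMP4 in 45.8%, against 95.8% and 72.9% before thinning. In endothelial-like cells of E60 the shares were 0% and 0.714% after thinning and 4.29% and 3.57% before, at a median of 16131 UMIs against 6756 in the condensate-like cells. BMP4 and BMP7 were among the 5 genes that led this cluster although they took no part in forming it, beside SMOC1, SOX18 and PTCH1, the Hedgehog receptor and a Hedgehog target, at 433 CPM.

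Outside the condensate-like cluster, clusters of E60 differed in GDF10. GDF10 was highest in the dermal-like cluster led by ANGPT1 and CADM3, at 469.6 CPM (452 to 488), where BMP4 and BMP7 were at 1.57 CPM each, from 9 counts each. The cluster led by TMEM35A and RCAN2 followed at 255 CPM (245 to 266). The next clusters, at 197 and 187 CPM, overlapped each other. The one at 187 CPM is that led by SEMA3C and SMOC2, so GDF10 and BMP4 were both present in it. In 3 unnamed clusters, of which 2 had DKK1 and ISM1 among their leading genes, GDF10 was low, between 7.56 and 14.8 CPM, and BMP7 was between 96.6 and 102 CPM. Their identity is unclear: one was led by the globins HBAII and HBAI, with dermal as its closest class, and the other 2 had erythroid as their closest class with 2 markers found. Dermal-like cells as a whole held 91.7% of the GDF10 UMIs of E60, and GDF10 was detected in 64.6% of them against 10.7% of endothelial-like cells, or 30.2% against 1.43% after thinning.

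The ANGPT1 and CADM3 cluster and these 3 clusters lie apart in both genes in the plot of GDF10 and BMP7 by cluster. BMP4 was between 29.9 and 56.9 CPM in the same 3 clusters. Over the 21 E60 clusters of at least 50 cells, the correlation of log2(CPM + 1) between BMP7 and GDF10 was r = −0.43, between BMP4 and GDF10 r = −0.23, and between BMP4 and BMP7 r = 0.72. These are descriptions of clusters that share a library, not tests.

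**Figure D2:**
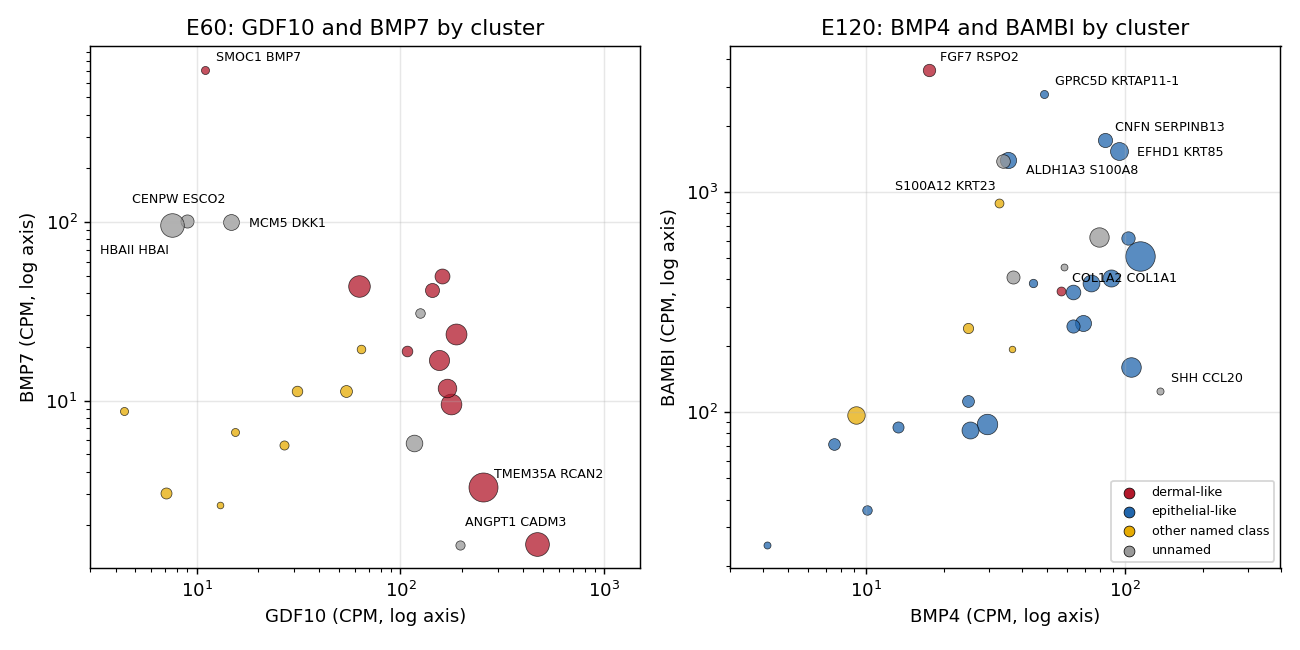
Left, BMP7 (vertical) and GDF10 (horizontal) by cluster at E60; right, BAMBI (vertical) and BMP4 (horizontal) by cluster at E120, all in CPM on log axes, with 1 point per cluster coloured by class, its area growing with the number of cells, and some labelled by 2 leading genes. At E60 the cluster led by ANGPT1 and CADM3 has the highest GDF10, 469.6 CPM, with BMP7 at 1.57 CPM, and at E120 the cluster led by FGF7 and RSPO2 has the highest BAMBI with BMP4 at 17.6 CPM.

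BMP3 appeared at E90, in the condensate- or papilla-like cells. It had 0 counts in the 48 cells of E60 and stood at 329.7 CPM (299.9 to 362) in the 256 cells of E90, at least 39.8-fold higher than the 3-count floor of the E60 cells. At E120 it was at 63.1 CPM (51.0 to 77.1), 5.23-fold lower than at E90 (4.18 to 6.59), a log2 ratio of −2.37 that was under the call in 1 of 11 alternatives, the filter on genes and mitochondrial share per cell (−1.84). The 3 intervals did not overlap. Over all 25 clusters of E60, the highest BMP3 level was 3.77 CPM, from 4 counts, and 21 clusters had 0 counts.

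The 2 E90 clusters shared BMP3 but differed in BMP4. The cluster of 80 cells, led by BMP3, SPARCL1, IGFBP3, BMP4 and COL13A1, had BMP3 at 494 CPM (434 to 561), BMP4 at 334 CPM (284 to 389) and BMP7 at 616 CPM. The cluster of 176 cells, led by SPON1, COL28A1, CAPN6 and GAP43, had BMP3 at 239 CPM (208 to 273), BMP4 at 48.9 CPM (35.4 to 65.8) and BMP7 at 243 CPM. BMP4 in the second cluster overlapped its neighbours in the order of levels, an epithelial-like cluster at 49.3 CPM and another at 43.9 CPM. BMP3 in the first cluster was detected in 41 of 80 cells, all of which also had BMP7, which is 51.2% of the cells against 37.8% from the product of their shares. Every other pair of members was also above its product in this cluster. Pair shares, here and for the other clusters, were counted without thinning. The part of unequal depth between cells in them was not tested.

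The E90 condensate- or papilla-like cells were 3.69% of the library and held 46.0% of its BMP3 UMIs, 22.2% of BMP4 and 19.2% of BMP7. The next cluster for BMP3 was unnamed, led by ACTG2 and ACTA2, at 49.6 CPM. The other E90 dermal-like cells, 248 in number, were at 5.85 CPM, against 13.7 CPM in myeloid-like and 12.2 CPM in suprabasal-like cells. Follicle bud- or peg-like cells were at 1.87 CPM (0.227 to 6.76), and hair shaft-like cells had 0 counts (upper limit 9.04 CPM). The 11 dermal markers in the table were also counted outside dermal-like cells, with a sum of 11768 CPM in dermal-like, 3459 CPM in epithelial-like and 3405 CPM in myeloid-like cells. BMP7 was likewise at 22.9 CPM in the E90 cluster where it was lowest. The part of RNA from outside the cell in these E90 levels was not tested.

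BMP4 was lower at each later stage in the condensate- or papilla-like cells, pooled by stage. It was at 494 CPM at E60, 150.2 CPM at E90 (130.3 to 172) and 27.2 CPM at E120 (19.5 to 36.9), 3.29-fold lower from E60 to E90 (2.68 to 4.04), which is under the call, and 5.52-fold lower from E90 to E120 (3.93 to 7.91), which was called. From E60 to E120 it was 18.1-fold lower (12.9 to 26.1). The E120 level overlapped those of mural-like cells at 32.7 CPM and mast-like cells at 24.9 CPM. In the larger E120 cluster BMP4 was at 17.6 CPM, and in the collagen-led cluster at 56.7 CPM. The latter level was not below that of the larger E90 cluster. The order by stage therefore holds for the pooled cells and not for every pair of clusters.

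BMP7 stayed high in these cells while the other ligands exchanged places. It was at 715 CPM at E60, 376 CPM at E90 (344 to 409.8) and 442 CPM at E120 (409 to 477), and no pair of stages was called. The E90 and E120 intervals touched, and the E120 to E90 ratio was 1.18 (1.05 to 1.32). In the larger E120 cluster BMP7 was at 508 CPM (468 to 552), above every other E120 cluster. After thinning, BMP7 was detected in 49.6% of the E120 cells of this kind against 1.75% of endothelial-like cells, or 74.1% against 5.83% without it, at median depths of 5508 and 6341 UMIs. Detection was not particular to these cells. Without thinning, BMP7 was found in 1304 of 1585 hair shaft-like cells of E120, a higher share, in clusters with medians from 16736 to 24425 UMIs.

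**Figure D3:**
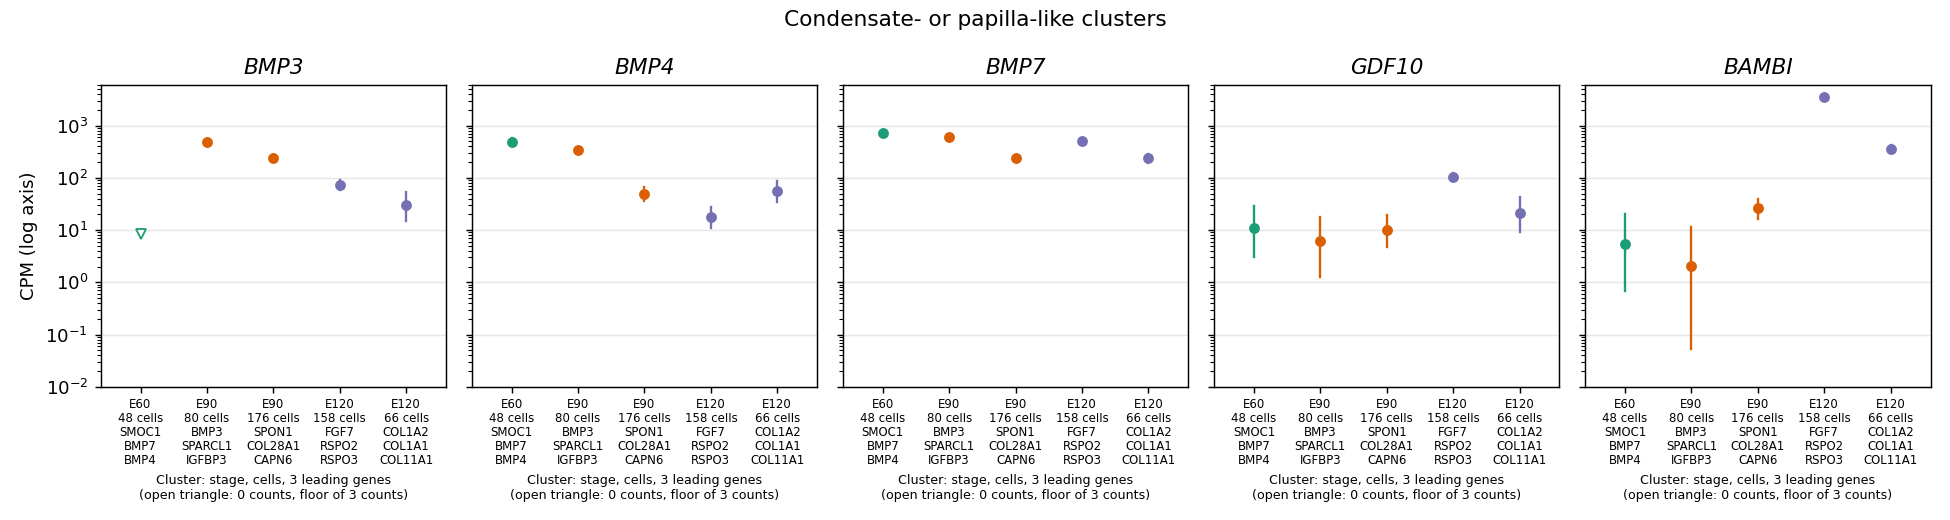
Level of each of the 5 genes, in CPM on a log axis with 95% counting intervals, in the 5 condensate- or papilla-like clusters, labelled by stage and leading genes. BMP4 runs from 494 CPM at E60 to 17.6 CPM in the E120 cluster led by FGF7, and BAMBI from 5.52 CPM to 3589.8 CPM.

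Among condensate- or papilla-like cells, GDF10 was highest at E120. It was at 11.0 CPM in the E60 cells from 4 counts (3.01 to 28.3), at 8.79 CPM in the E90 cells (4.54 to 15.4) and at 83.0 CPM at E120 (69.1 to 98.9), 9.44-fold above E90 (5.22 to 18.8). Of the 148 GDF10 UMIs of the E120 library, 125 (84.5%) came from these cells, which were 3.25% of its cells. The cluster led by FGF7 held 103 CPM (85.2 to 124), the collagen-led cluster 21.6 CPM, and an epithelial-like cluster led by CCN2, SEMA3E and SOX9 was next at 17.7 CPM. The last pair overlapped.

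BMP3 at E120 was confined almost wholly to the same cells, with 95 of 97 UMIs (97.9%). BMP3 and GDF10 were found together in 17.1% of the 158 cells of the FGF7 cluster, where the product of their shares is 15.5%. Across the 26 E120 clusters of at least 50 cells the 2 genes had r = 0.86, against 0.20 over the 22 E90 clusters, where GDF10 was at or below 10.2 CPM in every cluster. Among all 31 E120 clusters BMP3 had 0 counts in 27 and GDF10 in 19, so the E120 value rests mostly on the papilla-like clusters. E120 papilla-like cells thus carried both atypical ligands. At E60 dermal-like cells outside the condensate-like cluster had GDF10 at 210.1 CPM and BMP3 at 0.0683 CPM, and at E90 the condensate- or papilla-like cells had BMP3 with GDF10 at 8.79 CPM. The other dermal-like cells of E90 had 5 GDF10 counts.

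The make-up of ligand UMIs in the condensate- or papilla-like cells shows the exchange in 1 view. At E60, 442 ligand UMIs were 58.6% BMP7 and 40.5% BMP4 (35.9 to 45.2), with 0.905% GDF10. At E90, 1180 UMIs were 43.5% BMP7, 38.1% BMP3 and 17.4% BMP4. At E120, 926 UMIs were 71.8% BMP7, 13.5% GDF10, 10.3% BMP3 and 4.43% BMP4. The other dermal-like cells of E60 were of another make-up, with 87.1% GDF10 among 10600 UMIs.

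**Figure D4:**
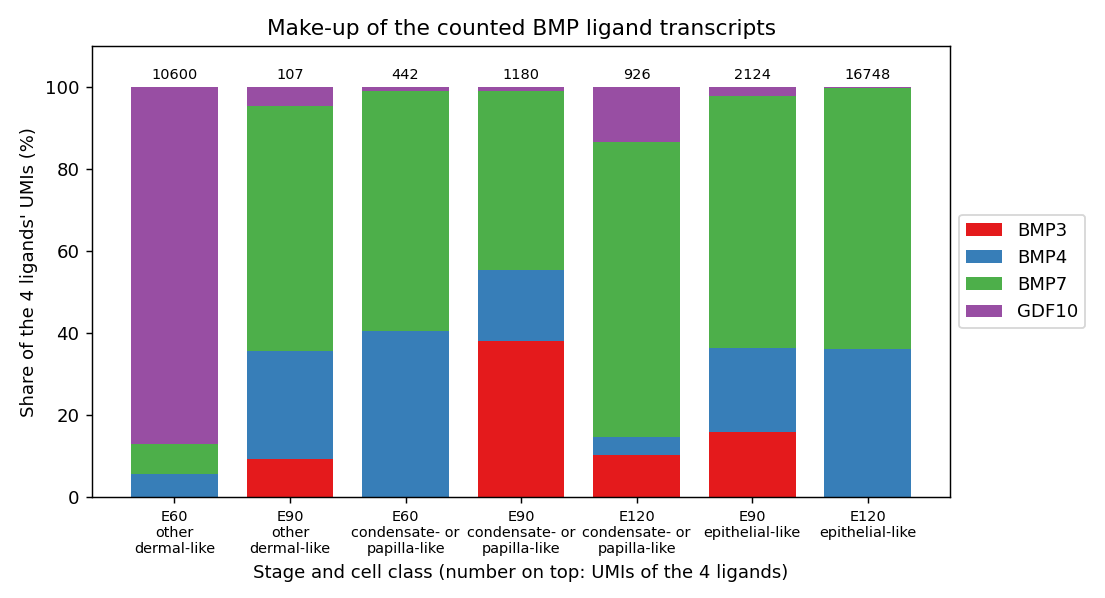
Share of the 4 ligands, in percent of their summed UMIs, in each class and library. BMP4 is 40.5% in the condensate-like cells of E60 and 4.43% in the papilla-like cells of E120, and GDF10 is 87.1% in the other dermal-like cells of E60.

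In counts over the condensate- or papilla-like cells, 1 of 5 members was called from E60 to E90, BMP3 higher, against 21.3% of all genes (19.8% higher, 1.43% lower). From E90 to E120, 4 of 5 were called, GDF10 and BAMBI higher and BMP3 and BMP4 lower, against 8.96% (4.14% higher, 4.82% lower). From E60 to E120, 4 of 5 were called, BMP3, GDF10 and BAMBI higher and BMP4 lower, against 20.1% (16.9% higher, 3.12% lower). The members' median log2 ratios were −0.30, 0.23 and 2.80, and those of all genes 0.79, −0.23 and 0.52. The E60 cells held 362257 UMIs in all, so that 3 counts were already 8.28 CPM.

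These comparisons rest on how the clusters were named. When likely doublets, set as the top 6% of cells of each library by doublet score, were left out and the rest clustered again, the E90 cluster of 176 cells and the E120 collagen-led cluster lost their names, although only 2 of 176 and 9 of 66 of their cells had been removed. In the 79 E90 cells and 143 E120 cells then left, BMP3 was at 471 and 79.3 CPM, BMP4 at 300.2 and 7.71 CPM, BMP7 at 598 and 574 CPM, GDF10 at 6.25 and 117 CPM, and BAMBI at 2.08 and 4005 CPM. The log2 ratio of BMP4 was then −0.84 from E60 to E90, in place of −1.71, and −5.11 from E90 to E120, in place of −2.42.

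Over dermal-like cells as a class, 4 of 5 members were called from E60 to E90, BMP3, BMP4 and BMP7 higher and GDF10 lower, against 14.5% of all genes (12.1% higher, 2.37% lower). From E90 to E120, 2 of 5 were called, GDF10 and BAMBI higher, against 9.04% (4.40% higher, 4.65% lower). From E60 to E120, 3 of 5 were called, BMP3, BMP7 and BAMBI higher, against 14.0% (10.8% higher, 3.15% lower). The members' medians were 2.05, 1.23 and 4.19, and those of all genes 0.46, −0.16 and 0.30. BMP4 was 4.33-fold higher from E60 to E90 in this class, a log2 ratio of 2.05 that fell under the call in 8 of 11 alternatives (1.39 to 2.15 over all), while it was lower within condensate- or papilla-like cells, which were 48 of the 4669 dermal-like cells of E60 and 256 of the 504 of E90. In the dermal-like cells outside them, BMP4 was at 13.6 CPM at E60 and 16.4 CPM at E90.

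The epithelium carried BMP4, BMP7 and BAMBI at E120. Hair shaft-like cells were 66 of the 3872 epithelial-like cells at E90 and 1585 of 5284 at E120, where follicles were picked. A change of level within a cell type and a change of make-up therefore cannot be told apart in this class. The 66 cells of E90 were a cluster with KRT85, a listed shaft marker, and KRT25, a listed inner root sheath marker, both among its leading genes. Its shaft name is therefore weak. BMP4 went from 26.5 CPM at E90 to 74.2 CPM at E120 in epithelial-like cells, 2.80-fold (2.54 to 3.09), which is under the call but past it in 4 of 12 alternatives. BMP7 went from 78.9 to 131 CPM, 1.66-fold. BAMBI went from 5.33 to 593 CPM, 111-fold (90.3 to 139), and was called. BMP3 went from 20.3 CPM to 0 counts among 81580157 UMIs, at least 552-fold lower, and was called. The E90 hair shaft-like and bud- or peg-like cells were already at 0 counts and 1.87 CPM, while the largest E90 epithelial-like cluster, of 1574 cells, was at 34.1 CPM, and the part of RNA from outside the cell in that level was not tested.

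Of the 4 members that reached 10 CPM in epithelial-like cells, 2 were called against 15.1% of all genes (2.46% higher, 12.6% lower), with medians of 1.09 and −0.34. Beside the dermal-like cells of the same library, 1 of 3 members was called at E90, BMP3 being 7.38-fold lower in epithelial-like cells, against 3.82% of all genes (2.84% higher, 0.977% lower), with medians of −1.48 and −0.22. At E120, 3 of 5 were called, BMP3 at least 1716-fold, GDF10 322-fold and BAMBI 4.71-fold lower in epithelial-like cells, against 20.5% (3.66% higher, 16.8% lower), with medians of −2.24 and −0.27. BMP4 was the only member higher in epithelium at E120, 2.73-fold, where at E90 it had been 2.86-fold lower. Of the 233 BMP4 UMIs of the E90 dermal-like cells, 205 came from condensate- or papilla-like cells. In the other E90 dermal-like cells the BMP4 level was below that of epithelial-like cells.

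BMP4 at E120 was highest in clusters led by SHH or by hair shaft keratins. The order began with an unnamed cluster of 30 cells led by SHH and CCL20 at 137 CPM, followed by a cluster led by HS3ST2 and KRT35 at 115 CPM, a second SHH and CCL20 cluster at 106 CPM and a cluster led by the shaft keratin KRT84 at 103 CPM. Neighbours in this order overlapped. Hair shaft-like cells stood at 108 CPM, bud- or peg-like cells at 83.3 CPM, inner root sheath-like cells at 27.0 CPM and suprabasal-like cells at 13.3 CPM. The bud- or peg-like level rests mostly on the second SHH and CCL20 cluster, with 530 BMP4 counts. That cluster had only 1 listed marker of its class, SHH, among its leading genes, beside DCN, a listed dermal marker. Its name is therefore weak. The clusters of that class led by CCN2 and SEMA3E and by SPP1 and KRT14 had 14 and 8 counts. Hair shaft-like cells were 23.0% of the library and held 46.1% of its BMP4 UMIs.

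BMP7 differed less than BMP4 between hair shaft-like, bud- or peg-like and inner root sheath-like cells. It was at 132 CPM in both hair shaft-like and bud- or peg-like cells and at 113 CPM in inner root sheath-like cells, with 20.5 CPM in suprabasal-like cells. Within the bud- or peg-like class it was uneven. The SHH and CCL20 cluster of 438 cells had 842 BMP7 counts among 5004234 UMIs. The clusters led by CCN2 and SEMA3E and by SPP1 and KRT14 had 18 counts each, among 563625 and 1060608 UMIs. The SHH cluster of 30 cells was at 250.4 CPM, next to the collagen-led mesenchymal cluster at 237 CPM. At E90 an unnamed cluster of 33 cells led by CXCL10, FGF20 and CCL20 had 252 CPM, which overlapped the larger condensate- or papilla-like cluster at 243 CPM. FGF20 is a signal of the follicle placode.

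BAMBI at E120 was highest in the papilla-like cluster led by FGF7, at 3589.8 CPM (3480.5 to 3702), and next in epithelial-like clusters. The cluster led by GPRC5D and KRTAP11-1 had 2774 CPM (2683 to 2867), the one led by CNFN 1718 CPM, and the one led by EFHD1 and KRT85 1540.2 CPM, none of which overlapped the next. Of these 3, only the last took the hair shaft-like name. The GPRC5D cluster was also led by KRT33A and KRTAP3-1, which the shaft marker list does not hold. Its missing name therefore does not set it apart from shaft cells. The lowest E120 cluster was at 25.0 CPM and the median cluster at 356 CPM. Endothelial-like cells were at 97.2 CPM, myeloid-like cells at 193 CPM and mast-like cells at 241 CPM. Hair shaft markers summed to 781, 1121 and 2484 CPM in these 3 classes against 14757 CPM in epithelial-like cells. They summed to 1817 CPM in the dermal-like cells of E120, all of them papilla-like. The part of RNA from outside the cell was not tested, neither in the BAMBI level of these 3 classes nor in the E120 papilla-like levels. After thinning, BAMBI was detected in 79.5% of papilla-like and 15.2% of endothelial-like cells, against 84.8% and 40.5% without it. Without thinning it was found in 1528 of 1585 hair shaft-like cells, a higher share at a greater depth.

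In the condensate- or papilla-like cells BAMBI was at 5.52 CPM at E60 from 2 counts (0.669 to 19.9), at 17.6 CPM at E90 (11.3 to 26.2) and at 2794 CPM at E120 (2710.0 to 2879.6), 159-fold above E90 (107 to 248). The collagen-led E120 cluster had 356 CPM, far below the FGF7 cluster and itself the median of the E120 clusters. At E60 BAMBI belonged to other cells: the tendon- or cartilage-like cells had 375 CPM (339 to 413) and held 31.2% of its UMIs with 1.53% of the cells, followed by Schwann- or glial-like cells at 114 CPM. At E90 BAMBI was at 62.4 CPM in melanocyte-like cells, from 28 counts.

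Other genes of the pathway were read from the same cells. Of the 57 other pathway genes of the list, 46 were in the table. In condensate- or papilla-like cells, 9 of the 25 that reached 10 CPM were called from E60 to E90, all higher, where 21.3% of all genes were called. From E90 to E120 it was 8 of 26, 6 higher and 2 lower, against 8.96%, and from E60 to E120 11 of 22, 9 higher and 2 lower, against 20.1%. Their median log2 ratios were 0.96, −0.15 and 0.93, near those of all genes from E60 to E90 and from E90 to E120. Among receptors, BMPR1A and ACVR2A were called higher from E60 to E90, from 1 and 0 counts at E60, and ACVR2B lower from E60 to E120. From E90 to E120 none of the 9 receptors and co-receptors that reached 10 CPM was called, and none of 3 SMADs. The type I receptor ACVR1, for example, was at 77.3, 71.1 and 77.0 CPM at E60, E90 and E120. SMAD1, the transducer, was at 121, 91.6 and 28.6 CPM, 3.21-fold lower from E90 to E120 (2.25 to 4.65), which is under the call, and 4.25-fold lower from E60 to E120 (2.73 to 6.63), which was called.

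Target genes and antagonists made up most of the calls. ID1, a direct target, was at 179 CPM at E60, 239 CPM at E90 and 3029 CPM at E120, 12.7-fold above E90 (11.3 to 14.2). ID3 was at 209.8, 439 and 6178 CPM, 14.1-fold above E90 (13.0 to 15.3). MSX1, a homeobox target, had 0 counts at E60, 2 counts at E90 and 57.8 CPM at E120. At E120 MSX1 was called higher in epithelial-like than in dermal-like cells. The part of RNA from outside the cell in its papilla-like level was not tested. Of 5 target genes that reached 10 CPM from E90 to E120, ID1, ID3 and MSX1 were called. ID1 and ID3 thus followed BAMBI, itself known as a target of the pathway, in being highest at E120.

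Of 7 extracellular antagonists and modulators that reached 10 CPM from E90 to E120, SOSTDC1 and NOG were called higher and FSTL3 and SOST lower. SOSTDC1, which binds BMP ligands outside the cell, was at 8.28 CPM at E60 from 3 counts, 42.5 CPM at E90 and 971 CPM at E120, 22.8-fold above E90 (17.6 to 30.2). FST, which binds activins and BMPs, was at 5.52 CPM from 2 counts, 156 CPM and 435 CPM, called from E60 to E90 but not from E90 to E120. NOG, which blocks BMP4 and BMP7, had 0 counts, 1 count and 13.9 CPM. The intracellular inhibitor SMAD7 was at 13.8, 12.5 and 87.0 CPM, 6.99-fold above E90 (4.20 to 12.4). SOST went from 12.5 CPM at E90 to 0 counts at E120, at least 6.25-fold lower, and FSTL3 from 11.7 CPM to 1 count, a ratio of 17.7 (2.74 to 740.2).

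**Figure D5:**
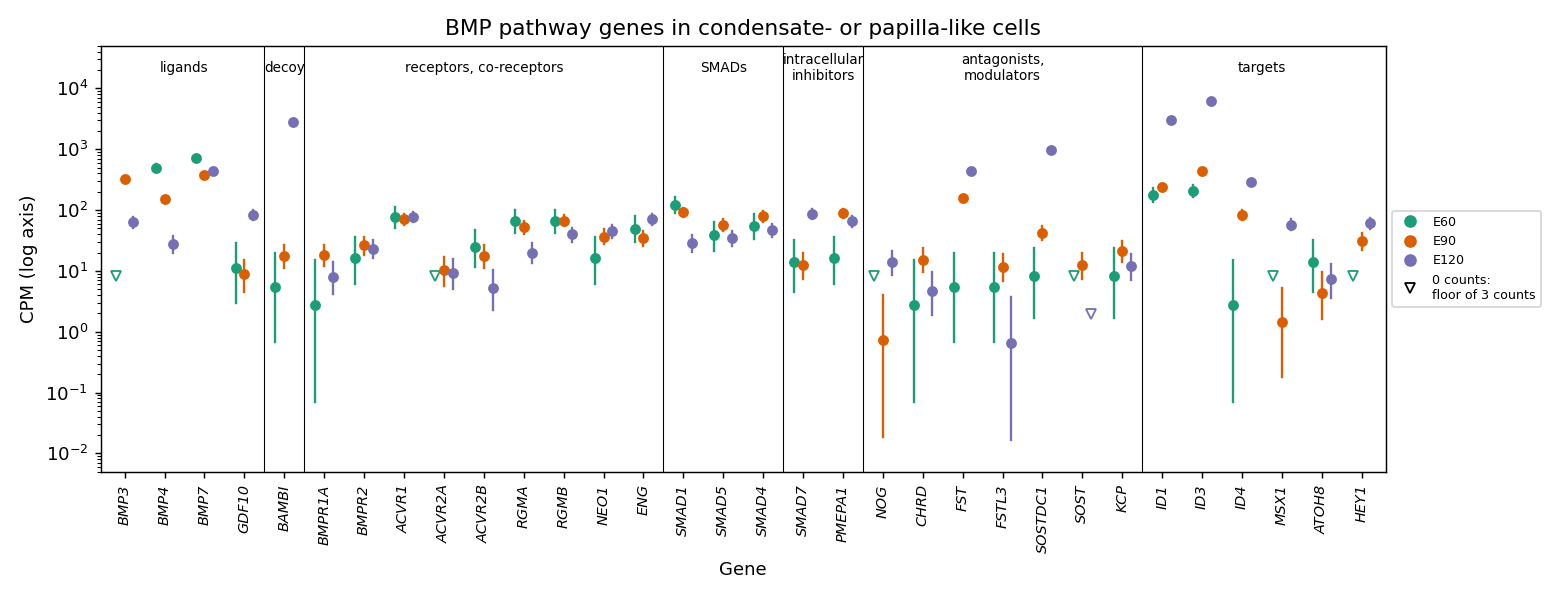
Level of BMP pathway genes, in CPM on a log axis, in condensate- or papilla-like cells of each stage, ordered by role, with 0 counts drawn at the 3-count floor. ID1 and ID3 reach 3029 and 6178 CPM at E120, while ACVR1 stays between 71.1 and 77.3 CPM.

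The epithelium had the same 3 targets called higher at E120, and FST, SOSTDC1 and SOST called lower. The make-up of the epithelial-like cells differed between these stages, as given above. In epithelial-like cells 12 of 26 pathway genes were called from E90 to E120, 4 higher and 8 lower, against 15.1% of all genes (2.46% higher, 12.6% lower). ID1 went from 216 to 1703 CPM, ID3 from 208 to 1651 CPM and MSX1 from 1.33 to 251 CPM. SOSTDC1 went from 200.2 to 8.78 CPM and FST from 224 to 12.1 CPM, in the opposite direction to the papilla-like cells. The receptor BMPR1B went from 18.0 to 0.637 CPM. BMP2, an activating ligand close to BMP4, was at 10.1 and 18.5 CPM, 1.83-fold (1.56 to 2.16), which is under the call. Between epithelial-like and dermal-like cells, 1 of 26 was called at E90, SOSTDC1 higher in epithelium, against 3.82% of all genes. At E120 it was 7 of 23, MSX1 higher and ENG, PMEPA1, NOG, FST, SOSTDC1 and KCP lower, against 20.5%.

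In whole libraries 6 of 23 pathway genes were called from E60 to E90, all higher, against 9.56% of all genes. The count was 11 of 25 from E90 to E120, 4 higher and 7 lower, against 13.1%, and from E60 to E120 10 of 22, 6 higher and 4 lower, against 19.8%. In dermal-like cells 7 of 24 were called from E60 to E90, all higher, against 14.5%. The count was 8 of 25 from E90 to E120, 7 higher and 1 lower, against 9.04%, and from E60 to E120 12 of 23, 10 higher and 2 lower, against 14.0%.

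The genes most like each member were found by the correlation of log2(CPM + 1) over the 69 clusters of at least 50 cells, among 4478 genes. Clusters of 1 library share its depth and free RNA, so the values are descriptions. BMP3 was most like CHST8 (r = 0.92), MMP16 (0.86), CCSER2 and ITGA8 (0.83 each) and NDNF (0.82). GDF10 was most like SCRG1 (0.89), the matrix gene TNC (0.87), TSPAN7 (0.86), and ZFHX4 and CA11 (0.83 each). BAMBI was most like ALDH1A3 (0.87), a retinoic acid synthesis enzyme, ID1, NME2 and MT4 (0.82 each) and GPRC5D (0.81).

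BMP4 and BMP7 were each near the top of the other's list. BMP4 was most like BMP7 (0.72), and then UTP25 and BMP2 (0.59 each), NSUN2 and HSPH1 (0.58 each). BMP7 was most like TRPS1 and BMP4 (0.72 each), the WNT ligand WNT10A (0.70), UCHL5 and CKB (0.68 each). Within libraries, BMP4 and BMP7 had r = 0.72 over 21 E60 clusters, 0.78 over 22 E90 clusters and 0.56 over 26 E120 clusters. BMP3 and BMP7 had r = 0.75 over the E90 clusters.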

How the data were processed

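Single-cell 3′ libraries of 3 fetal stages, 1 library each, were analysed. Reads were processed with Cell Ranger 3.0.2, per the submitters' processing notes; genome build and annotation are not given in the sources used here. The deposited table holds natural log values, ln(1 + UMIs scaled to 10000 per cell), for 20676 cells and 16739 genes, from which whole UMI counts were recovered. The design had assumed counts, so counts were summed per library and class, with no test.

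Each library was clustered (2000 variable genes, 30 components, 20 neighbours, Leiden resolution 1; Python 3.11.15, scikit-learn 1.9.0, leidenalg 0.10.2) without BMP pathway genes. A cluster took the class with the highest share of its markers found, and was unnamed with under 3 markers or where leading genes went against the name. That scoring rule was set after the data were seen, as were the condensate- or papilla-like comparisons. Doublets were kept in the values given, and removed in an alternative. The members, markers and pathway list were chosen with earlier results of these data known. The genes named are the members, the pathway list and the 5 genes most like each member. Counts and ratios were checked on simulated data. Ratios use CPM, calls log2(CPM + 1), and a level with 0 counts is bounded by a floor of 3 counts (0.046, 0.099 and 0.032 CPM over the E60, E90 and E120 libraries).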

Additional observations from a re-analysis of the deposited data

Results flagged for a closer look

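Between E90 and E120 the log2 ratios of BMP4 and GDF10 had opposite signs in dermal-like and epithelial-like cells. BMP4 had a log2 ratio of −1.44 in dermal-like cells and 1.45 in epithelial-like cells. GDF10 had a log2 ratio of 3.69 in dermal-like cells and −1.64 in epithelial-like cells, where it was at 2.91 CPM at E90 and 0.257 CPM at E120. With 1 library per stage, neither difference between the classes was tested, and the E120 cells were prepared in another way than the E90 cells. Of the 4 ratios, only that of GDF10 in dermal-like cells passed the call, and GDF10 in epithelial-like cells was under 10 CPM at both stages. The dermal-like cells were all papilla-like at E120 (224 cells), but 256 of 504 at E90. Epithelial-like cells differed in make-up too, with 66 of 3872 hair shaft-like at E90 and 1585 of 5284 at E120.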

How the results depend on the processing

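No paired analysis was possible because each stage is 1 library, and for the same reason no replicate could be left out. Of 290 recounts of genes past 4-fold, 256 stayed within 1.5 times the count given and 34 moved. No called log2 ratio of the 5 members changed sign; of their 555 values, called or not, 151 moved beyond their counting interval. Uncalled ratios that took either sign were BMP4 in dermal-like cells from E60 to E120 (−0.52 to 0.64) and, in condensate- or papilla-like cells, GDF10 (−1.02 to 0.17) and BAMBI (−1.33 to 4.22) from E60 to E90 and BMP7 (−0.06 to 0.73) from E90 to E120. With a pseudocount of 10 CPM, members called went from 2 to 1 in whole libraries and in epithelial-like cells (E90 to E120). Pathway genes called then went from 10 to 6 in whole libraries (E60 to E120), from 7 to 2 in dermal-like cells (E60 to E90), from 12 to 7 in epithelial-like cells, from 1 to 0 (E90) and from 7 to 3 (E120) between epithelial-like and dermal-like cells, and in condensate- or papilla-like cells from 9 to 3 (E60 to E90) and from 8 to 5 (E90 to E120). With a minimum of 50 CPM, members called went from 2 to 1 in whole libraries (E60 to E90, and E90 to E120) and in epithelial-like cells. Pathway genes called then went from 6 to 3, from 11 to 7 and from 10 to 6 in the whole-library comparisons, from 7 to 2 in dermal-like cells (E60 to E90), and from 9 to 3 and from 8 to 5 in condensate- or papilla-like cells. With no minimum, pathway genes called went from 7 to 12 between the classes at E120 and from 11 to 17 in condensate- or papilla-like cells (E60 to E120), where thinning to 2000 UMIs gave 18. Between epithelial-like and dermal-like cells at E90, 2 members were called in place of 1 with a cell filter (1000 genes or more, 10% mitochondrial counts or fewer), with Leiden resolution 0.5, with all libraries clustered together and, chosen after seeing the data, without the cluster led by ND6, CENPB and AKAP12. Pathway genes called there were 0 in place of 1 with equal weights per cell or with unnamed cells in their closest class, 2 with median-of-ratios scaling, the cell filter or Leiden resolution 0.5, and 3 with all libraries clustered together. In condensate- or papilla-like cells from E60 to E90, 2 members were called in place of 1 with the cell filter or with thinning. From E90 to E120, 13 pathway genes were called in place of 8 without likely doublets, where 2 clusters lost their names. The 2 minima change how many genes are tested and a larger pseudocount shrinks every ratio; for the other settings the cause was not tested. Clustering all libraries together gave no E60 condensate-like cluster, so comparisons with it have no value there.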
